A study of Mus musculus with 2 samples.

Results

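Enterocytes are the absorptive cells of the small intestine, and the 1313 enterocytes described here were the cells to which the authors' annotation gave that name. They made up 1313 of the 3275 cells that the authors kept, of which 3207 were epithelial and 68 were intraepithelial lymphocytes (IEL). The cells came from jejunal crypts of 2 male mice of 12 months, 1 library per mouse, called replicate 1 and replicate 2. Both mice were 375KO, which carry a whole-body deletion of the microRNA miR-375 made with CRISPR/Cas9 in FVB x B62J hybrid embryos and then crossed back to B6 albino mice, while the labels give the strain as C57BL6/2J. Both libraries therefore share the deletion, the tissue, the age and the sex, no treatment is stated, and wild-type cells were not analysed here. Droplet libraries were made with the 10x Genomics 3′ kit, in which each captured RNA molecule carries a unique molecular identifier (UMI).

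An enterocyte is born from a dividing progenitor in the crypt and matures as it moves up the villus, from whose tip it is shed. Its apical face is folded into a brush border that carries the enzymes completing the digestion of starch, sugar and protein, beside the transporters that take up their products. Inside the cell, dietary fat is rebuilt into triglyceride and packed with apolipoproteins into chylomicrons. The position along the villus and along the length of the gut both set which of these genes an enterocyte expresses, and bile acid uptake is the best known task of the ileal, most distal, enterocyte.

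Enterocytes were 931 of 2082 kept cells in replicate 1, or 44.7% with an exact binomial 95% interval of 42.6 to 46.9. Replicate 2 had 382 of 1193, or 32.0% (29.4 to 34.8). Their UMIs summed to 19366535 and 5348340, so that a gene without any UMI could still have been present at up to 0.155 per 1000000 UMIs in replicate 1 and 0.561 in replicate 2 (3 UMIs of the total). All intervals here cover counting error only, not the difference between mice. The median depth of an enterocyte was 16975 UMIs over 3469 detected genes in the former and 13405 UMIs over 3020.5 in the latter. The libraries stood apart in mitochondrial RNA. The median enterocyte had 13.2% mitochondrial UMIs in replicate 1 and 7.59% in replicate 2, and each was the highest of the 9 epithelial types of its library. The limit on mitochondrial reads that the authors applied removed 180 barcodes with enough detected genes from replicate 1 and 1 from replicate 2. How the share of enterocytes among kept cells depends on that limit was not tested. No cell barcode was shared by the libraries.

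Stretches of promoter are given for 3 genes that recur below, because each bears a match to a motif of the factors that drive intestinal genes. They are Sis (chr3:72967864-72968113), Alpi (chr1:87101607-87101856) and Fabp6 (chr11:43601563-43601812), all on the minus strand of GRCm38.p6, and each covers the 250 bases before the start of the gene in RefSeq. Capitals mark matches on either strand to any of 6 motifs. The nuclear receptor HNF4 is known to bind the letters CAAAGTCCA and CAAAGGTCA. The homeobox factor HNF1 binds a site that holds GTTAAT. The zinc finger factors of the Gata family bind AGATAA. The homeobox factors Cdx1 and Cdx2 bind TTTATG, and the general transcription machinery binds TATAAA shortly before many start sites. Where the reverse strand matched, the capitals show its complement as it stands in the printed strand.
Sis: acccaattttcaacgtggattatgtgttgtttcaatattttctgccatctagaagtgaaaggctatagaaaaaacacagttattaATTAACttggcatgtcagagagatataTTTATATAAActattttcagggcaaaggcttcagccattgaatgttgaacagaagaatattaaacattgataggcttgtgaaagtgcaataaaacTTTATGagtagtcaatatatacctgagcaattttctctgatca
Alpi: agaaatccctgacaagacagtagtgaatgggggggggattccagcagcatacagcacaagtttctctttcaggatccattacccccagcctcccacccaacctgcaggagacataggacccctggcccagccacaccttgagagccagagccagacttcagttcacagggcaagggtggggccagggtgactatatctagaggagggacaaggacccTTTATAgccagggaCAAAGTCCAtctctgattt
Fabp6: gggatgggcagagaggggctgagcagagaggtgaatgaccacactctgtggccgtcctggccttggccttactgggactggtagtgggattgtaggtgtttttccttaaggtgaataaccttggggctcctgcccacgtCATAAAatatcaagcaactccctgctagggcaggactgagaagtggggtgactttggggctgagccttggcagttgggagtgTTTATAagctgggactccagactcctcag

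In the Sis sequence, the capitals hold 1 HNF1 match on the reverse strand, overlapping TATAAA matches on both strands and 1 CDX match. The Alpi sequence holds TATAAA on the reverse strand and, closest to the start, CAAAGTCCA, and the Fabp6 sequence holds a CDX match and a TATAAA match, both on the reverse strand. The 9-letter motif CAAAGTCCA stood in 15 of the 831 windows of this kind that belong to genes higher in enterocytes (defined below), or 1.81%, against 0.431% of the 7196 windows of all genes compared and 0.384% of all 32851 windows. For CAAAGGTCA the shares were 0.842%, 0.417% and 0.426%. For each 6-letter motif, the share in windows of the higher genes lay between that of all compared genes and that of all windows. These 3 shares were 5.90%, 4.18% and 6.43% for GTTAAT and 9.03%, 6.03% and 9.99% for AGATAA. They were 6.50%, 6.02% and 10.8% for TTTATG and 9.87%, 6.56% and 12.4% for TATAAA. Windows were found for 624 of the 790 genes, their median GC content was 57.6% against 60% for compared genes and 52.4% for all windows, and whether GC content bears on the shares was not tested. A match to these letters is no evidence of a bound factor.

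To set enterocytes beside the other epithelium, UMIs were summed over the enterocytes of each mouse, scaled to counts per 1000000 UMIs (CPM), and divided by the unweighted mean CPM of the other 8 types: stem, transit-amplifying (TA), goblet progenitor, goblet, secretory progenitor, Paneth, enteroendocrine (EEC) and tuft cells. A gene was counted as higher or lower in enterocytes when it differed at least 2-fold in that direction in both mice. The authors' types were themselves clustered from these genes in these cells, so these counts describe the class and carry no test.

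The 6 marker genes of the class were each the highest of the 9 types in both mice. The authors named the types by known cell type markers in these cells, so this describes the class and is no check of the label. Fabp1, a fatty acid carrier of the cytosol (chr6:71199827-71205023, plus strand; gene positions are from GENCODE M21 on mm10), stood at 19464 CPM in replicate 1, with an exact Poisson 95% interval of 19402 to 19526, and at 8640 CPM (8561 to 8719) in replicate 2. That was 76.4 and 46.0 times the mean of the other types, of which the next were secretory progenitors at 693 CPM in replicate 1 and tuft cells at 1248 CPM in replicate 2. Sis, the sucrase-isomaltase of the brush border (chr3:72888557-72967863, minus), stood at 2359 (2337 to 2381) and 1107 (1079 to 1135) CPM, 14.9- and 18.9-fold higher than the mean, with EEC next at 596 and 306 CPM. Both genes were thus also found in the sums of other types, with log2 ratios of enterocytes to the highest other type of 3.80 for Fabp1 and 1.92 for Sis as the mean of both mice.

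Apoa1 and Apoa4 were at or near 0 outside the class in replicate 2. Apoa1 (chr9:46228580-46230466, plus) stood at 6342 (6306 to 6377) and 4137 (4082 to 4191) CPM in enterocytes against a mean of 63.1 and 0.197 CPM in the other types. Its neighbour Apoa4 (chr9:46240696-46243459, plus), a chylomicron protein made at the villus tip, stood at 2411 (2389 to 2433) and 1001 (974 to 1028) CPM against 9.72 and 0.384. The means of the other types in replicate 2 rested on 9 UMIs of Apoa1 and 15 of Apoa4, so no fold is given for them. In replicate 1 the folds were 101 and 248.

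Mttp, which loads lipid onto apolipoprotein B (chr3:138089854-138144968, minus), was at 1029 (1015 to 1043) and 588 (567 to 609) CPM, 18.4- and 20.9-fold above the mean. Alpi, the intestinal alkaline phosphatase (chr1:87098002-87101606, minus), was at 169 (163 to 175) and 174 (163 to 185) CPM, 19.0- and 48.2-fold above it. TA cells were next for both genes. Alpi was the only one of the 6 markers whose intervals overlapped between the mice. Summed, the 6 markers took 31773 CPM of enterocyte RNA in replicate 1 and 15646 in replicate 2, and at most 1372.5 CPM in any other epithelial type, in secretory progenitors of replicate 1.

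**Figure D1:**
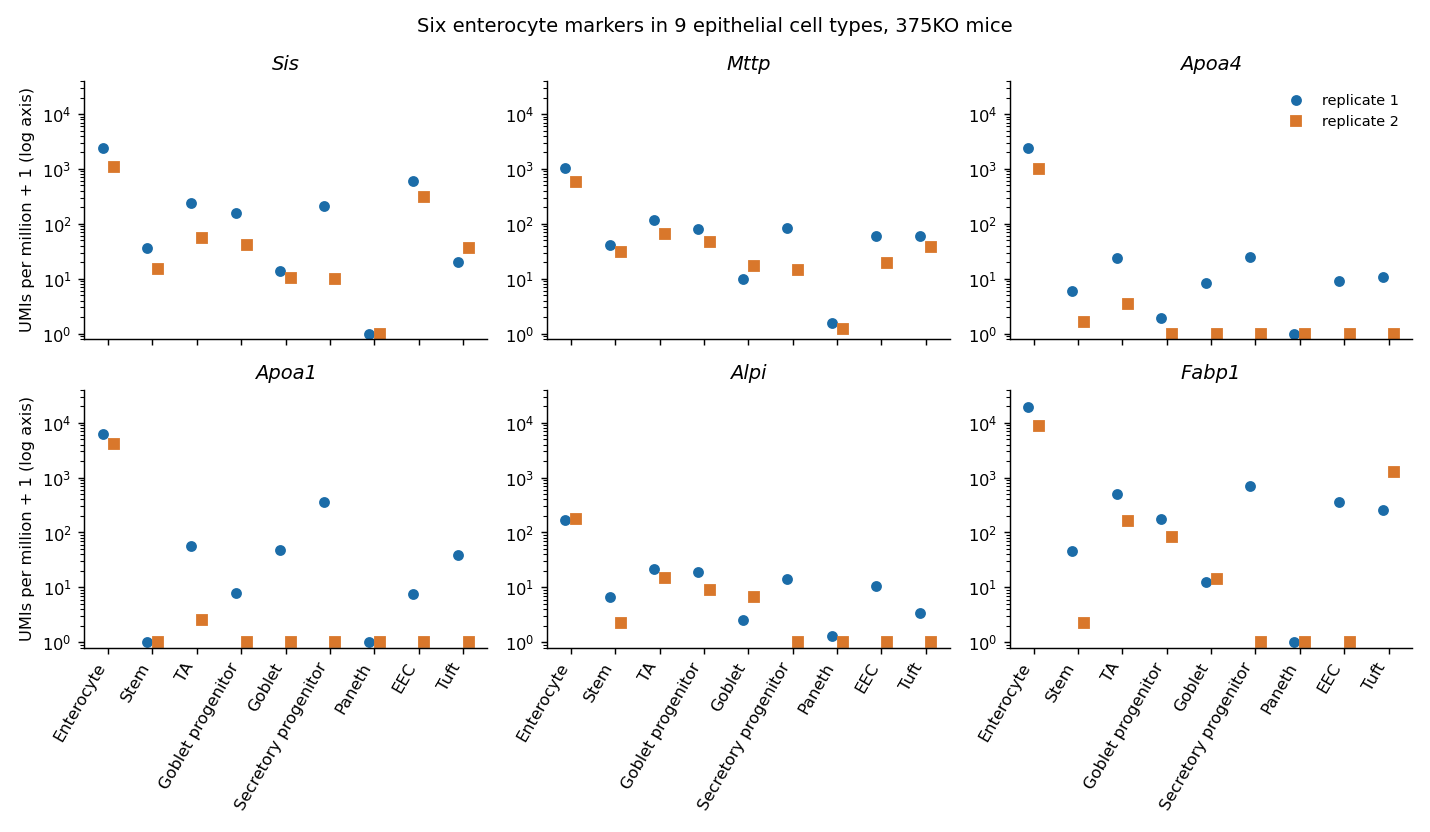
Level of the 6 enterocyte markers (CPM plus 1, log axis) in the summed cells of each of 9 epithelial types, 1 point per mouse. Enterocytes lie highest in both mice in every panel, with Fabp1 at 19464 and 8640 CPM.

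Taken cell by cell, the markers were not in every enterocyte, and their shares differed. Sis was present in 98.9% of enterocytes in replicate 1 and 92.1% in replicate 2, and Mttp in 98.0% and 92.7%. Apoa1 was present in 86.7% and 65.2%, and Alpi in 84.6% and 72.5%. A Fabp1 UMI was present in 844 of 931 enterocytes of replicate 1 (90.7%) and 292 of 382 of replicate 2 (76.4%), against 3.61% and 0.725% of goblet cells, which should lack the gene and had median depths of 13649 and 15708.5 UMIs. After each cell was thinned to 5000 UMIs, with 1 enterocyte too shallow to be used, the shares were 87.3% and 72.3% in enterocytes, 29.1% and 13.9% in TA cells, and 3.26% and 0.725% in goblet cells. Sis was present in 96.5% and 80.9% of thinned enterocytes, but also in 47.8% and 17.6% of TA cells and 20.6% and 5.98% of stem cells. Apoa4 was present in 65.4% and 36.9% of thinned enterocytes (76.2% and 47.1% before thinning). In goblet cells it was present in 1.09% in replicate 1, and in 0 of 138 cells in replicate 2, where the exact upper limit was 2.64%.

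Across the transcriptome, 790 of the 7218 genes compared (10.9%) were higher in enterocytes and 1251 (17.3%) were lower. Of the higher genes, 725 (91.8%) were the highest of all 9 types in both mice. The split between the directions depended on scaling: with TMM normalization 974 genes were higher and 1022 lower, so that 48.8% of the called genes were higher where it had been 38.7%, and the median log2 ratio of all genes moved by 0.20. It depended more on the comparator: against the other epithelial cells pooled, 833 genes were higher and 360 lower, so that 69.8% were higher and the median moved by 0.36. With Paneth cells left out of the mean the split moved the other way, to 676 genes higher and 1428 lower. Then 32.1% were higher and the median moved by -0.17. Over the genes compared, the median log2 ratio was -0.26 in replicate 1 and -0.08 in replicate 2, the values against which the medians of gene groups below should be read.

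The 20 leading genes were ranked by the smaller of the ratios in the 2 mice. Among them were Apoa4, Fabp6, Apoa1, Leap2, Ggt1, Cyp3a11, Lct, Gda, Ace, Apoc3, Aldh1a1, Reg1, Dpep1, Reg3a, 2010106E10Rik, Mep1b, Fabp1, Rbp2 and Gsta1. Lct, the lactase that splits milk sugar, stood at 239 and 214 CPM (78.4- and 203-fold). Gda, a guanine deaminase, stood at 408 and 197 CPM (75.7- and 148-fold), and Ggt1, which cleaves glutathione at the cell surface, at 283 and 132 CPM (81.0- and 90.7-fold). Folds this large divide by low levels in the other types, so their size is uncertain. Leap2, which encodes a peptide that acts against the ghrelin receptor, stood at 269 and 142 CPM against 3.10 and 0.131 in the other types.

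The lowest 10 genes were all products of Paneth cell granules. Among them were AY761184, Itln1, Gm14851, Defa21, Gm15299, Ang4, Mptx2, Defa26 and Defa22, several of them near-identical defensin copies between which reads may be split. In enterocytes, 9 of the 10 had 0 UMIs in both mice and Defa22 had 1 UMI in replicate 1. The mean of the other types was 8958 and 7417 CPM for AY761184 and 6392 and 3005 CPM for Itln1, an intestinal lectin.

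**Figure D2:**
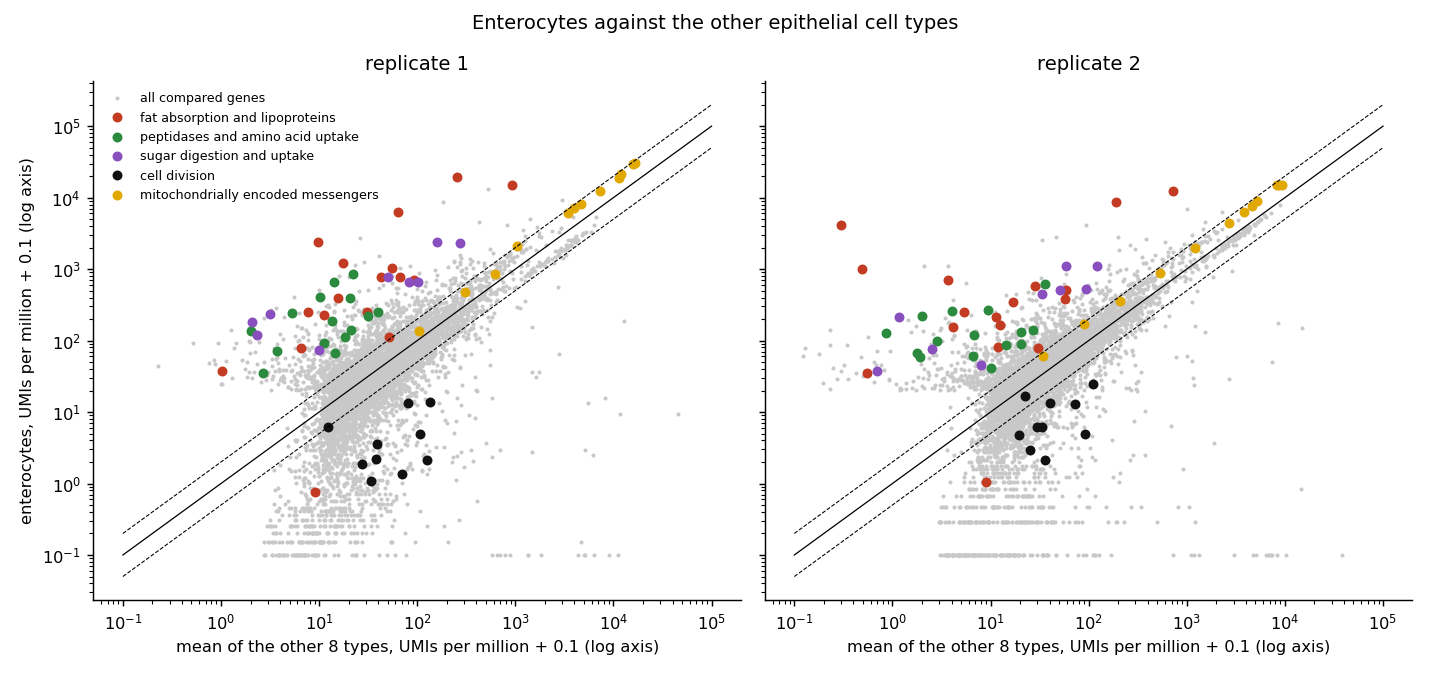
Each gene's level in enterocytes against its mean in the other 8 epithelial types (CPM plus 0.1, log axes), 1 panel per mouse. Grey points are all compared genes, of which 790 were at least 2-fold higher and 1251 at least 2-fold lower in both mice. Coloured points are the compared genes of the lists for fat absorption, peptidases and amino acid uptake, sugar digestion, cell division and mitochondrially encoded messengers. The solid line marks equal levels and the dashed lines a 2-fold difference.

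Genes of fat absorption summed to 49107 and 29804 CPM, more than any other nutrient group. Of 18 genes, 17 were compared, 16 were higher in enterocytes and 1 was lower, with a median log2 ratio of 4.21 in replicate 1 and 4.35 in replicate 2. Fabp2, another fatty acid carrier, stood at 15045 and 12504 CPM (16.4- and 17.4-fold), with goblet cells next at 2443 and 2356 CPM. Of the enzymes that rebuild triglyceride, Mogat2 was at 395 and 249 CPM (25.3- and 47.2-fold), Dgat1 at 714 and 516 CPM (7.79- and 8.84-fold) and Dgat2 at 77.9 and 80.6 CPM (12.0- and 6.81-fold).

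The same group held the genes of chylomicron assembly and of lipid entry. Apob, the structural protein of the chylomicron, was at 772 and 342 CPM (18- and 20.4-fold), and Apoc3, a lipase inhibitor carried on the particle, at 1211 and 714 CPM (69.4- and 201-fold). Npc1l1, the cholesterol importer, was at 250 and 164 CPM (8.08- and 13.2-fold), while the fatty acid receptor Cd36 was at 36.9 and 35.3 CPM. The exception was Scarb1, a lipoprotein receptor with 0.671 and 0.935 CPM in enterocytes against a highest level of 62.8 and 60.4 CPM in EEC. Apoc2 was under 2 CPM in both mice and was not compared.

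All 9 of the compared genes of sugar digestion and uptake were higher in enterocytes, of 10 listed, with median log2 ratios of 3.89 and 3.78. Beside Sis and Lct, the starch-digesting Mgam stood at 656 and 519 CPM (6.45- and 5.59-fold) and the trehalase Treh at 119 and 75.7 CPM (53.5- and 30.9-fold). Slc5a1, the sodium-coupled glucose carrier SGLT1, stood at 776 and 455 CPM (15.6- and 13.8-fold). Slc2a5, the fructose carrier, stood at 74.0 and 45.1 CPM (7.49- and 5.69-fold). Khk, which takes up the first step of fructose breakdown, stood 7.99- and 9.98-fold above the mean.

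All 15 genes of peptide digestion and amino acid uptake were higher in enterocytes, with median log2 ratios of 3.81 and 4.17, and 13 were the highest of the 9 types in both mice. Anpep, an aminopeptidase, stood at 847 and 619 CPM (38.9- and 17.3-fold), and Mep1b, a subunit of the metalloprotease meprin, at 666 and 256 CPM (47.3- and 65.5-fold). The exceptions in rank were Slc6a19, the carrier of neutral amino acids (141 and 86.2 CPM against 150 and 111 CPM in EEC), and Xpnpep2, an aminopeptidase at 41.5 CPM in replicate 2 where EEC stood at 41.8 CPM.

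The ratios of brush border structure genes were smaller than those of these enzymes and carriers, with 11 of 13 genes higher and median log2 ratios of 2.00 and 1.84. Vil1, the actin bundler villin, stood at 703 and 532 CPM (4.55- and 4.37-fold), and Myo1a, the motor that ties the actin core to the membrane, at 571 and 455 CPM (4.79- and 5.38-fold). Tuft cells, which also bear a tall microvillus tuft, were next for both. Espn, another actin bundler, was at 176 and 109 CPM in enterocytes and at 752 and 818 CPM in tuft cells. Ush1c, the scaffold of the links between microvilli, was 1.70 and 1.65 times the mean. Pdzk1, a scaffold for apical carriers, was at 91.1 and 60.2 CPM, with a total of 8 and 1 UMIs in the other types.

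Genes that handle drugs, toxins and retinoids were higher in enterocytes in 15 of 16 compared, of 18 listed, with median log2 ratios of 4.64 and 4.90. Rbp2, the retinol carrier, stood at 8805 and 4141 CPM (47.8- and 44.1-fold), and Aldh1a1, which makes retinoic acid, at 509 and 373 CPM (51.5- and 91.9-fold). The cytochrome Cyp3a11 stood at 209 and 114 CPM (78.9-fold in replicate 1) and Cyp4f14 at 499 and 474 CPM (19.7- and 19.6-fold). No fold is given for Cyp3a11 in replicate 2, where few UMIs lay outside the class. It was found there in 3 of 323 TA, 1 of 117 stem and 3 of 138 goblet cells, with at most 1 UMI per cell. Bco1, the enzyme that splits beta-carotene, was the exception at 0.516 and 1.5 CPM, with 37.1 and 41.8 CPM in EEC. Reads of the closely related Cyp3a and Gsta genes may be split between copies.

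Metal handling, phosphatase and oxidation genes were mixed. In the iron and metal list 5 of 6 compared genes were higher, with median log2 ratios of 1.39 and 1.60: Fth1, a ferritin chain, stood at 9142 and 6323 CPM (3.09- and 2.77-fold), whereas the iron exporter Slc40a1 was at 3.67 and 1.68 CPM and the ferric reductase Cybrd1 at 0.155 and 0.187 CPM, too low to compare. Of 7 phosphatase and purine genes, only 3 were compared and 2 (Alpi and Xdh) were higher, with median log2 ratios of 4.06 and 3.59. In the list of fatty acid oxidation and ketogenesis 7 of 11 compared genes were higher, with median log2 ratios of 1.30 and 1.28. Acadvl, which starts the oxidation of very long fatty acids in mitochondria, was at 185 and 152 CPM (2.60- and 2.93-fold), and Cpt1a, which admits fatty acids to mitochondria, was at 51.8 and 76.5 CPM, 0.998 and 1.43 times the mean.

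More of the genes known from the base of the villus were higher than of those known from its tip. All 8 base genes were higher in enterocytes, with median log2 ratios of 3.95 and 4.40, among them the antimicrobial lectins Reg3b (13361 and 2524 CPM), Reg3g (4553 and 2802 CPM) and Reg3a (1127 and 1088 CPM). Of 9 tip genes, 6 were compared and 2 (Apoa4 and the lipid regulator Creb3l3) were higher, with median log2 ratios of -0.02 and -0.65. The sign of that median changed with the scaling, to 0.080 as the mean of both mice with TMM, and with the comparator, to 1.08 against the other epithelial cells pooled. The tip genes Ada, Nt5e and Slc28a2, which act in purine handling, were at or under 1.68 CPM in enterocytes of both mice. Klf4, a factor of late differentiation, was lower than the mean (45.2 and 35.3 CPM, 0.286-fold in both), with goblet cells highest at 522 and 382 CPM, and so was the growth factor receptor Egfr (4.65 and 3.74 CPM, 0.440- and 0.442-fold).

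Most of the listed transcription factors of the intestine were not called in either direction. Of 18 factors, 15 were compared, 3 were higher, 1 (Klf4) was lower and 11 were neither, with median log2 ratios of 0.46 and 0.72. The higher ones were Maf (207 and 163 CPM, 16.2- and 41.6-fold), Creb3l3 (247 and 157 CPM, 32.5- and 39.3-fold) and the bile acid receptor Nr1h4 (45.0 and 39.1 CPM, 3.12- and 3.85-fold). Hnf4a was at 143 and 210 CPM, 1.19 and 1.27 times the mean, and 4th of the 9 types in both mice. Its relative Hnf4g was the highest of 9 in both mice but 3.23 and 1.76 times the mean, and Cdx2, the factor of intestinal identity, was 1.37 and 1.25 times it.

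Genes of cell division were low in enterocytes. Of 10 genes, 9 were lower in enterocytes and Pcna was neither, with median log2 ratios of -4.05 and -2.37. Mki67 stood at 4.91 and 12.7 CPM against 327 and 199 CPM in TA cells, and Top2a, the topoisomerase of dividing cells, at 2.01 and 4.86 CPM against 406 and 310 CPM. Of 13 mitochondrially encoded messengers, 12 were compared. None was called in either direction, but 10 were the highest of 9 types in both mice, with median log2 ratios of 0.81 and 0.77. The cytochrome oxidase subunit gene mt-Co1 stood at 18979 and 14942 CPM, 1.65 and 1.79 times the mean.

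Markers of the other cell types were at low levels in the enterocyte sums. None of the 5 compared stem cell markers was higher and all 5 were lower, and the same held for 6 of 6 goblet, 5 of 5 Paneth, 6 of 6 EEC and 6 of 6 tuft cell markers, while none of the 6 IEL markers reached the level for comparison. Summed, the 6 goblet markers took 324 and 540 CPM of enterocyte RNA against 184477 and 164890 CPM in goblet cells. The 5 Paneth markers took 22.4 and 29.7 CPM, the 6 EEC markers 50.0 and 54.4 CPM, the 6 tuft markers 10.3 and 3.6 CPM, the 6 stem cell markers 19.1 and 34.0 CPM and the 6 IEL markers 35.4 and 144 CPM.

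Most UMIs of these markers lay in few cells. Of the enterocytes, 25 of 931 (2.69%) in replicate 1 and 13 of 382 (3.40%) in replicate 2 each held at least 20 UMIs of the 29 goblet, Paneth, EEC, tuft and IEL markers in the matrices. They carried 92.7% and 89.5% of all enterocyte UMIs of those markers, whereas the median enterocyte held 0 in replicate 1 and 1 in replicate 2. Of Zg16, a goblet granule lectin, 11 enterocytes of replicate 1 and 2 of replicate 2 held every UMI, and of Agr2, which folds mucin, 3 enterocytes of replicate 1 held all 46 UMIs. Other markers were spread thinly: the granule protein gene Chga was found in 178 and 78 enterocytes, the 5 richest of which held 11.6% and 14.5% of its UMIs, and the defensin gene Defa17 in 63 and 102 enterocytes, with 10.8% and 13.3% in the 5 richest. The doublet scores of these cells, which run from 0 to 1 in the authors' table, reached 0.956, although each had been kept as a singlet. Their highest score differed by cluster and mouse, from 0.195 in cluster 3 of replicate 2 to 0.956 in cluster 3 of replicate 1. Leaving these cells out, as was decided after seeing the data, left 786 genes higher and 1268 lower, and 778 of the 790 were among the former.

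The authors' clusters divided the enterocytes into 5, numbered 1, 2, 3, 6 and 9, and each was present in both mice. Cluster 1 held 282 of 931 enterocytes in replicate 1 (30.3%, interval 27.4 to 33.4) and 72 of 382 in replicate 2 (18.8%, 15.0 to 23.1). Cluster 2 held 183 (19.7%, 17.1 to 22.4) and 107 (28.0%, 23.6 to 32.8), and cluster 3 held 224 (24.1%, 21.3 to 26.9) and 64 (16.8%, 13.1 to 20.9). Cluster 6 held 143 (15.4%, 13.1 to 17.8) and 81 (21.2%, 17.2 to 25.6), and cluster 9 held 99 (10.6%, 8.73 to 12.8) and 58 (15.2%, 11.7 to 19.2). Replicate 1 thus had larger shares in clusters 1 and 3 and replicate 2 in clusters 2, 6 and 9, with intervals that overlapped for clusters 6 and 9 only.

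The clusters differed in how much of the marker genes they expressed, with cluster 2 lowest and cluster 1 highest in both mice. Summed, the 6 markers took 2361 and 853 CPM in cluster 2, 9505 and 7943 in cluster 9, 12243 and 5488 in cluster 6, 42066 and 21198 in cluster 3, and 65452 and 57653 in cluster 1. Clusters 9 and 6 changed places between the mice in this sum. Fabp1 had the same order of all 5 in both mice, from 1117 and 443 CPM in cluster 2, through 1729 and 1491 in cluster 9, 8468 and 3990 in cluster 6 and 27856 and 13746 in cluster 3, to 39426 and 31536 in cluster 1. Because the clusters were made from these genes, their differences are a description.

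Cluster 1 had the highest levels of nutrient genes. Against the other enterocytes of the same mouse, 192 of the 2044 genes compared (9.39%) were at least 2-fold higher in both mice, and 157 of these 192 (81.8%) were also higher in enterocytes than in the other types. Over all 7218 genes compared between types that share was 10.9%, and among the 2044 it was not computed. Cells of cluster 1 are part of the enterocyte sum, so the overlap is partly built in. Leading in cluster 1 were Sectm1b (151 and 177 CPM), Cyp3a11 (644 and 610 CPM), the sugar carrier gene Slc5a4b (233 and 419 CPM), Apoa4 (7011 and 5387 CPM), Pdzk1 (263 and 258 CPM) and Leap2 (744 and 688 CPM). Apoa4 was 8.25 times the level of the other enterocytes in replicate 1 and 40.2 times in replicate 2. Slc2a2, the basolateral glucose carrier GLUT2, stood at 394 and 159 CPM in cluster 1 and at 4.57 and 1.31 CPM in cluster 2. Of the 192, 2 genes, Klf4 (111 and 102 CPM in cluster 1) and the leukotriene synthase gene Ltc4s, were lower in enterocytes as a class, the latter chosen after its values were seen.

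Cluster 2 had the lowest summed level of the 6 markers and the highest of the 10 cell division genes. Of the 2108 genes compared, 128 (6.07%) were higher in cluster 2, none of which was higher in enterocytes as a class while 41 (32.0%) were lower in it. Over all 7218 genes compared between types, 10.9% were higher and 17.3% lower in the class. Among the 2108 these shares were not computed. Ptma, a chromatin protein of growing cells, stood at 1839 and 2166 CPM in cluster 2 and at 82.4 and 43.1 in cluster 1, and Ccnd1, the D-type cyclin of early cell cycle, at 191 and 149 CPM against 0.612 and 0 in cluster 1. The summed level of the 10 division genes was 145 and 181 CPM in cluster 2 against 19.8 and 15.9 in cluster 1, yet TA cells had 1818 and 1339 CPM. Mitochondrial RNA was also lowest in cluster 2, at a median of 10.2% and 5.89% of UMIs, and highest in cluster 1, at 15.1% and 9.65%. Cluster 6 (11.6% and 7.14%) lay below cluster 9 (12.3% and 7.67%), the reverse of their order in Fabp1. The part of mitochondrial RNA in the differences was not tested.

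**Figure D3:**
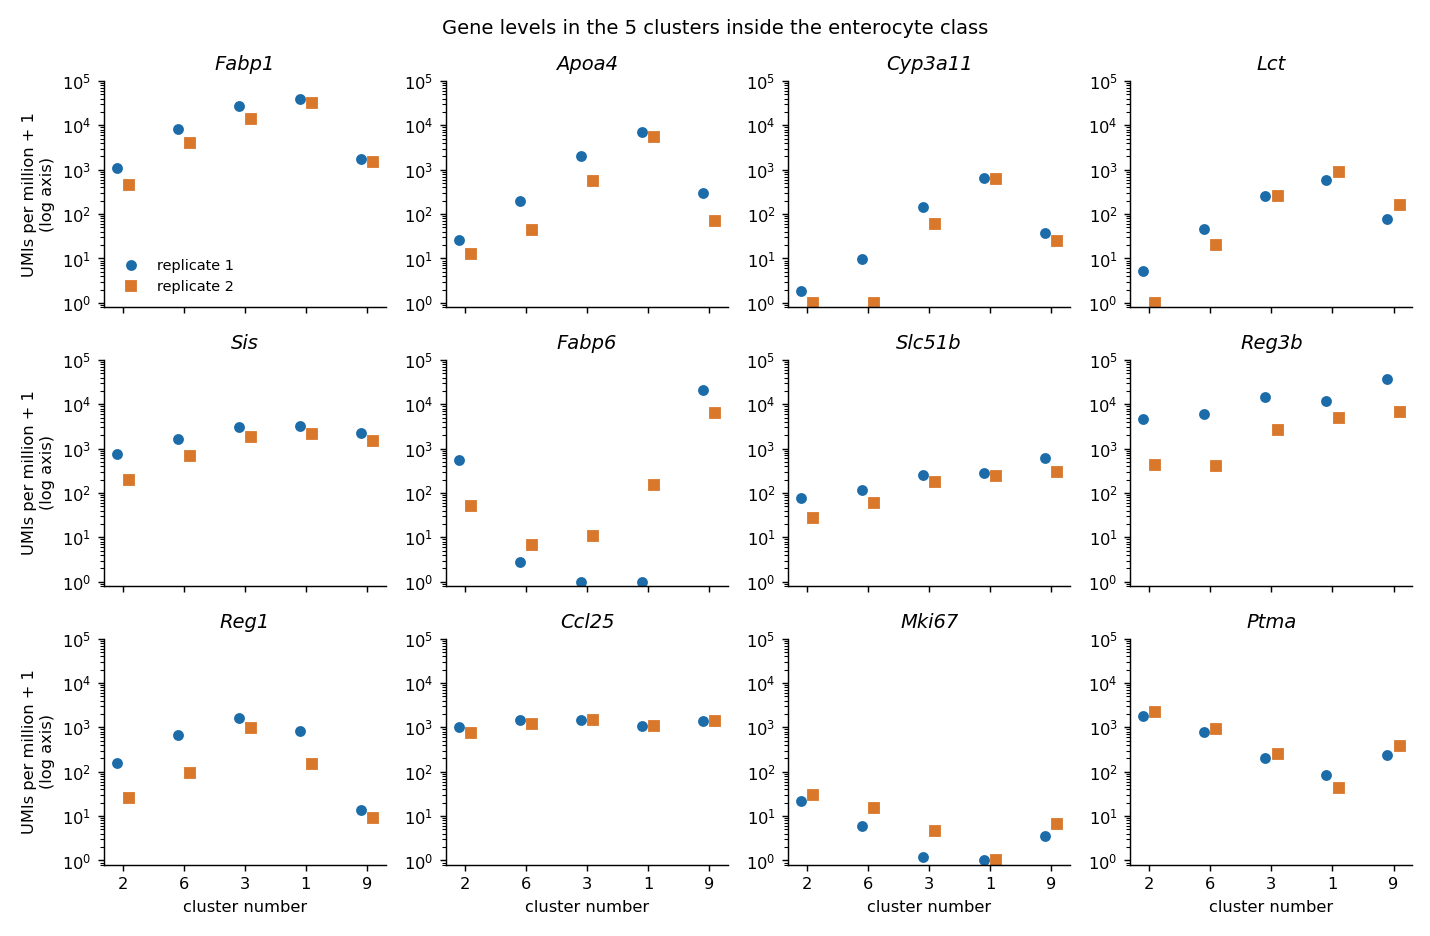
Levels of chosen genes (CPM plus 1, log axis) in the 5 clusters of the enterocyte class, 1 point per mouse and cluster. Fabp1 runs from 1117 and 443 CPM in cluster 2 to 39426 and 31536 in cluster 1, and Fabp6 reaches 20948 and 6438 CPM in cluster 9.

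Cluster 9 was marked by genes of the ileum. Of the 2130 genes compared, 27 (1.27%) were higher in it. Fabp6, the ileal bile acid carrier (chr11:43596049-43601540, minus), stood at 20948 and 6438 CPM, 184- and 127-fold above the other enterocytes. Slc10a2, the apical bile acid importer, was at 42.6 and 20.3 CPM in cluster 9 and at or under 4.53 CPM in the other clusters. Fgf15, the hormone that bile acids induce in the ileum, was at 64.7 and 14.7 CPM and at or under 7.93 CPM elsewhere. Its 14.7 CPM in replicate 2 rested on 13 UMIs, against 7 UMIs in cluster 1 of that mouse. Neither Slc10a2 nor Fgf15 had the level required in both mice for a comparison between clusters, so neither was among the 27. The basolateral bile acid exporter subunits Slc51a (912 and 479 CPM) and Slc51b (607 and 300 CPM) were 2.76- and 2.63-fold and 3.10- and 2.83-fold higher. In enterocytes as a class 3 of 6 ileal genes were compared and all 3, namely Fabp6, Slc51a and Slc51b, were higher than in the other types, with median log2 ratios of 5.31 and 6.16. The labels give the tissue as jejunum.

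Cluster 9 also had the highest levels of some defence genes. Reg3b stood at 36478 and 6542 CPM (3.61- and 3.79-fold above the other enterocytes) and Reg3g at 12168 and 6848 CPM (3.50- and 3.43-fold), but Reg1, of the same family, was lowest there at 12.9 and 7.90 CPM. Genes of antigen presentation on MHC class II, outside the rule by which genes were named and picked out after their values were seen, were higher too: H2-Aa at 576 and 703 CPM (2.97- and 2.94-fold), Cd74 at 2603 and 2902 CPM (2.32- and 2.38-fold) and H2-Ab1 at 716 and 758 CPM (2.12- and 2.23-fold). Guca2a, the secreted peptide guanylin, was at 879 and 2063 CPM, 4.28- and 4.04-fold higher, and was the only one of the 27 that was lower in enterocytes as a class.

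In clusters 3 and 6 few genes were called. In cluster 3, 9 of 2110 genes (0.427%) were higher, led by Zg16, and in cluster 6, 2 of 2130 (0.0939%), namely Dmbt1, a mucosal scavenger receptor, and Rbp7, a retinol carrier named after its values were seen. Of the 9 in cluster 3, 5 were genes of goblet and enteroendocrine cells (Cck, Fcgbp, Muc2, Zg16 and, named after its values were seen, Sct). These 5 and, in cluster 6, Dmbt1 were no longer called when the enterocytes rich in foreign marker RNA were left out. Cck, Fcgbp, Muc2 and Zg16 were among the markers by which those cells were picked, so their loss was set by that choice. Clusters 1 and 9 kept all their calls and cluster 2 kept 126 of 128. In cluster 3 all 2177 Zg16 UMIs of replicate 1 came from 2 cells. Reg1 (1662 and 967 CPM, 3.39- and 15.1-fold), Gsta1, 2210407C18Rik and 2010003K11Rik remained, though the last 2 were higher still in cluster 1 in replicate 2, at 759 against 492 CPM and 168 against 116 CPM, as was Gsta1 at 2127 against 1167 CPM. Cluster 6 lay between clusters 2 and 3 in Fabp1, Rbp2 and Ptma.

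Apoa4 and Fabp6 were high in separate enterocytes of replicate 1, whereas replicate 2 had too few Fabp6 cells to tell. Among cells thinned to 5000 UMIs, 440 of 930 in replicate 1 (47.3%) held at least 5 UMIs of Apoa4 but not of Fabp6, 81 (8.71%) held at least 5 of Fabp6 but not of Apoa4, and none held 5 of both, for which the exact upper limit was 0.396% of cells. In replicate 2 the counts were 67 of 382 (17.5%), 26 (6.81%) and 3 (0.785%). Cells with at least 5 UMIs of Apoa4 were thus 3 of the 29 Fabp6 cells of replicate 2 (10.3%, interval 2.19 to 27.4). That interval holds their share of 18.3% among all enterocytes of that mouse. In replicate 1 such cells were 0 of the 81 Fabp6 cells (upper limit 4.45%), against 47.3% of all thinned enterocytes. Cells of 1 library are not replicates, so these intervals describe each library and make no test. In replicate 1, 276 of the 440 Apoa4 cells were in cluster 1 and 155 in cluster 3, and 61 of the 81 Fabp6 cells were in cluster 9 and 20 in cluster 2. The 3 cells with both in replicate 2 were all in cluster 1. Fabp6 RNA in replicate 2 rested on few cells, 5 of which held 70.6% of its UMIs, against 30.8% in the top 5 of replicate 1. Before thinning, Fabp6 UMIs were found in 12.0% and 19.1% of enterocytes, against 0 of 277 goblet cells in replicate 1, with an exact upper limit of 1.32%, and 7 of 138 (5.07%) in replicate 2. After thinning the shares were 10.6% and 12.6% of enterocytes and 0% and 1.45% of goblet cells.

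**Figure D4:**
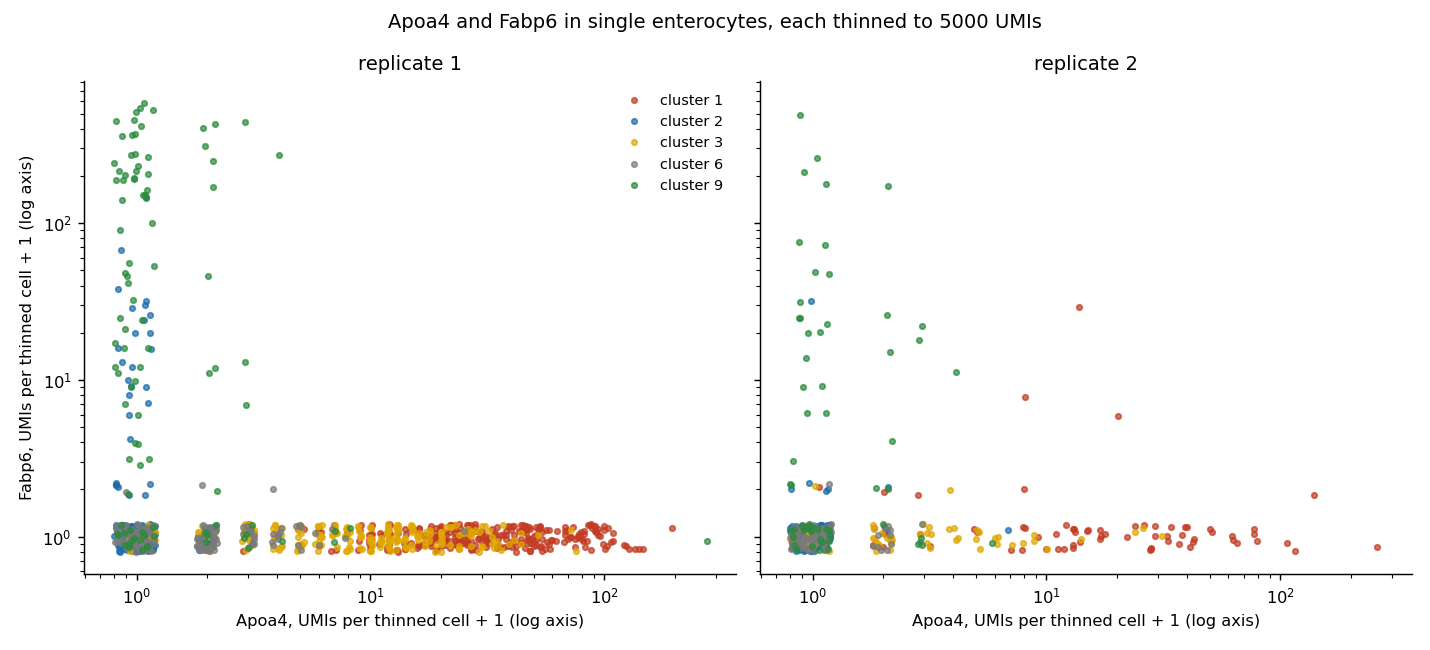
UMIs of Apoa4 and of Fabp6 in single enterocytes thinned to 5000 UMIs (plus 1, log axes, points spread slightly at random), 1 panel per mouse. Cells high in Apoa4 lie along the horizontal axis and those high in Fabp6 along the vertical axis, with 0 cells in replicate 1 and 3 in replicate 2 at 5 or more UMIs of both.

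Between the mice, 131 of the 2724 genes compared (4.81%) were at least 2-fold higher in enterocytes of replicate 1 and 149 (5.47%) in those of replicate 2. With 1 library per mouse these differences have no replicate check and no test. With mitochondrial genes left out of the totals the counts were 195 and 133, so that 59.5% of called genes were higher in replicate 1 where it had been 46.8%, and with the 5 clusters given equal weight in each mouse they were 74 and 122. Of the genes higher in replicate 1, 72 of 131 (55.0%) were genes higher in enterocytes than in the other types, as were 10 of the 149 (6.71%) higher in replicate 2 and 606 of all 2724 compared (22.2%).

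Of the 6 genes with the largest ratio in favour of replicate 1 among those with at least 100 CPM there, 4 were also higher in enterocytes than in the other types. Reg3b stood at 13361 and 2524 CPM, a ratio of 5.29 (exact conditional 95% interval 5.2 to 5.39). Slc2a2 was at 181 and 36.8 CPM (ratio 4.90, 4.24 to 5.69), Chp2, a calcineurin-like partner of sodium-proton exchangers, at 266 and 48.6 CPM (5.48, 4.83 to 6.23), and the MHC class I gene H2-Q1 at 130 and 27.9 CPM (4.67, 3.95 to 5.54). With the clusters weighted alike, the ratio went from 2.25 to 1.53 for Fabp1, from 2.41 to 1.58 for Apoa4, from 1.53 to 1.08 for Apoa1 and from 4.90 to 3.26 for Slc2a2. Fabp6 went the other way, from 2.42 to 3.23. The clusters were made from these genes, and the part of the make-up of the class in the gap between the mice was not tested.

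The largest gap in each direction lay in a ribosomal gene and its copy. Rps18, a ribosomal protein gene, stood at 48.8 CPM in replicate 1 and 4586 CPM in replicate 2 (93.9-fold, 88.0 to 100.2), and its processed copy Gm10260 at 535 and 9.72 CPM, 55.1-fold the other way. Reads of such copies may be split between them, so both values are uncertain. Their sum was 584 and 4596 CPM, still 7.87-fold higher in replicate 2. Gm8730, Rpl23a-ps3, Wdr89, Rpl13-ps3 and Rps28 were 29.0-, 27.9-, 27.8-, 17.8- and 15.3-fold higher in replicate 2, and Gm42418 was 5.59-fold higher in replicate 1. The mean of the other types differed as well, 57.5-fold for Rps18 and 5.21-fold for Gm42418. In all, 85 of the 131 genes (64.9%) and 93 of the 149 (62.4%) also passed the 2-fold limit, in the direction seen in enterocytes, when the other types were averaged. Of all 2724 genes, 202 (7.42%) passed it towards replicate 1 and 99 (3.63%) towards replicate 2 in that average.

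**Figure D5:**
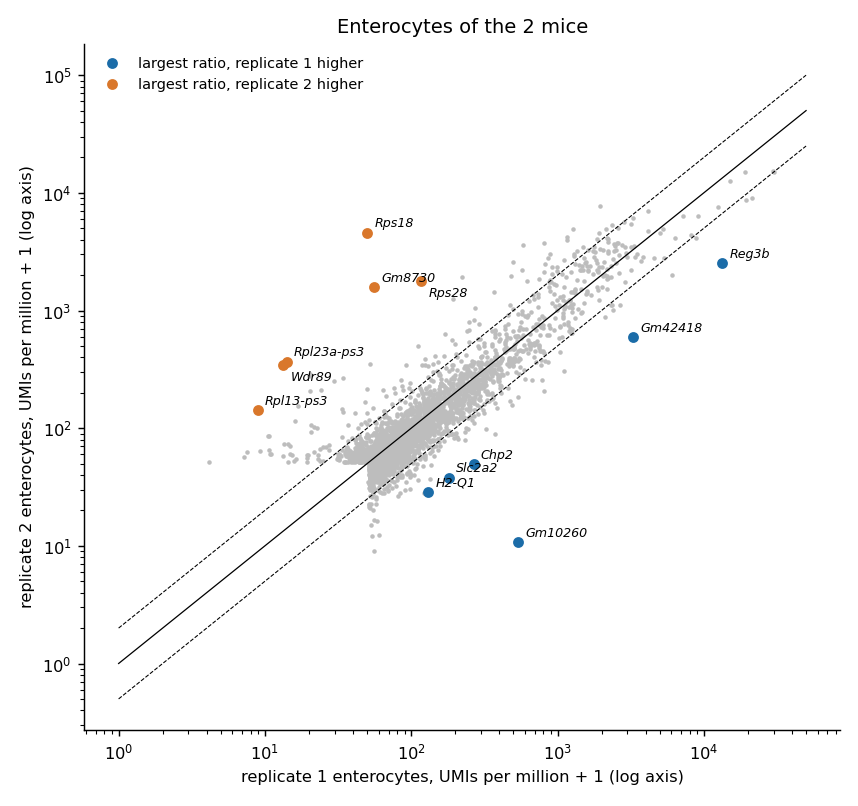
Level of each gene in the enterocytes of replicate 1 (horizontal) and replicate 2 (vertical), in CPM plus 1 on log axes, with a solid line at equal levels and dashed lines at a 2-fold difference. Named points are the 6 genes with the largest ratio in each direction, from Gm10260 at 55.1-fold to Rps18 at 93.9-fold.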

How the data were processed

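Single-cell RNA-seq of jejunal crypts from 2 375KO mice was used (10x Genomics 3′ kit, v2 chemistry per the labels). The submitters' notes name Cell Ranger 3.0.1, Seurat 3.2.1 and build mm10. The deposited matrices hold UMI counts per gene and barcode (64305085 and 23675011 UMIs over 7665 and 1251 barcodes). The authors' annotation gives each kept cell its mouse, cluster, cell type and percent of mitochondrial UMIs. The authors kept cells with at least 1500 genes and at most 25% mitochondrial reads and dropped called doublets; the deposited doublet score is a fraction from 0 to 1. The study used SoupX against ambient RNA, and for which matrices is not given in the sources used here. Annotated cells were joined to the matrices by barcode: all 3275 were found, with UMI totals that differed by a median of 1 and at most 1.27% (the matrices hold 27998 genes and the deposited table of counts has 16751 genes without names). In tables of the whole series, columns of 2937 cells and doublet scores of 6059 barcodes belong to other samples and were not used.

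Counts were summed per mouse and type or cluster and scaled to CPM. Genes with at least 20 CPM in some type in both mice were compared between types, those with at least 50 CPM in either mouse between mice, and those with at least 50 CPM in the cluster in both mice between clusters; a call needed a 2-fold difference. No fold was computed against 3 UMIs or fewer. There is 1 library per mouse, so no test was run. Intervals are exact Poisson, binomial or conditional binomial (scipy 1.17.1), at 95%. The members and gene lists were chosen with earlier results of these data known. Named genes were all list members, the 20 highest and 10 lowest ratios at 100 CPM or more, and 6 per mouse direction and per cluster. Alternatives were TMM (edgeR 4.0.16), DESeq2 1.42.0 size factors, other filters and comparators, thinned cells, clusters weighted alike and each mouse left out. The scripts were tested on simulated data. Promoter windows came from RefSeq (GRCm38.p6) and positions from GENCODE M21 (mm10). A few listed genes are not reported here.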

Additional observations from a re-analysis of the deposited data

Results flagged for a closer look

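Enterocyte RNA was also found among barcodes that the kept cells do not include. In replicate 1, 180 barcodes had enough detected genes but were over the mitochondrial limit, with a median of 35.1% mitochondrial UMIs. The 6 enterocyte markers took 29063.2 CPM of their UMIs, against 14267 CPM in all kept cells of that library and 31773 CPM in its kept enterocytes. In these 180 barcodes Fabp1 stood at 13380 CPM and Apoa4 at 4266 CPM. The 6 goblet markers summed to 3930 CPM there, against 21944 CPM in all kept cells. A further 3830 barcodes of replicate 1 were over that limit with too few genes (median 77.3% mitochondrial UMIs), and the 6 markers took 7770 CPM there. In replicate 2, 1 barcode was over the limit with enough genes, and it held 2 UMIs of the 6 markers. This was picked out because it is signal outside the cells compared, and whether these barcodes were intact enterocytes was not tested.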

How the results depend on the processing

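Without a filter on low values the genes higher and lower in enterocytes numbered 1585 and 3885, and at 100 CPM or more 324 and 376. Against the highest or lowest single other type they were 311 and 42, and with the other epithelial cells pooled 833 and 360. Without replicate 1 or 2 they ranged from 977 to 981 higher and from 1563 to 2032 lower. Between the mice, no filter gave 5025 genes (2685 higher in replicate 1, 2340 in replicate 2), and the count higher in replicate 1 was 82 at 100 CPM and 74 with clusters weighted alike. With stricter cell limits (at least 2000 genes and at most 10% mitochondrial UMIs) the counts were 119 and 123. These held only 43 of the 131 genes higher in replicate 1 and 87 of the 149 higher in replicate 2. Enterocytes over 10% mitochondrial UMIs were 83.9% of those in replicate 1 and 19.6% in replicate 2. Over the 5 clusters 355 genes were higher in 1 of them, 230 at 100 CPM, 57 with stricter cell limits (only clusters 2 and 6 then had enough cells in each mouse), and 628 to 665 with 1 mouse left out. The cause of these moves beyond the number of genes, cells or mice was not tested. The median log2 ratio of the villus tip genes turned to 0.080 with TMM and 1.08 with pooled cells, and that of the transcription factors to -0.12 against the highest other type. Of 356 values in all, 246 moved by less than the spread between the mice, or within 1.5 times for counts. Part of these could not move by that measure. Filters on low values leave single-gene ratios and list medians unchanged, and leaving out 1 of 2 mice always shifts them by less than the spread. Counts can also stay alike while the genes behind them change, so the tally does not measure how robust the results are. TMM kept 765 of the 790 higher genes and 927 of the 1251 lower ones. No paired analysis was possible because no test was run; each ratio of enterocytes to other types was already taken within a mouse. The depth allowed a level of up to 0.155 and 0.561 CPM for a gene without UMIs, and 2 mice give no error for a difference between mice.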
